A study of Homo sapiens with 4 samples.

Results

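Pigmentation and melanosome genes were described in SK-MEL-28 and A375, cell lines derived from human cutaneous melanoma. The group holds 33 genes, chosen by name for their roles as pigment enzymes, melanosome proteins, transport and biogenesis factors and targets of the transcription factor MITF. All 33 were found among the 17755 genes of the deposited table. The 4 groups were SK-MEL-28 siNC, SK-MEL-28 siLINC00622, A375 siNC and A375 siLINC00622. Each line was transfected with a control siRNA (siNC) or with siRNA against the long noncoding RNA LINC00622, for 6 h without serum and then 24 h with 10% serum. Each group is 1 library of poly(A) RNA, so within a line no comparison of the treatments has a replicate check, and each line stands for itself and not for a class of melanomas.

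Melanin is made in melanosomes, lysosome-related organelles of the pigment cell. PMEL fibrils form the striated matrix, TYR, TYRP1 and DCT carry out the enzymatic steps, and membrane transporters set the pH and the ion content inside the organelle. Biogenesis complexes, several of them named for Hermansky-Pudlak syndrome (HPS), sort the cargo, and RAB27A with MLPH and MYO5A tethers the ripe melanosome to actin. MITF, which binds E-box motifs such as CATGTG, is the known activator of many of these genes in the melanocyte lineage.

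The E-boxes are shown first because the members were chosen in part as MITF targets. Promoter windows of 300 bases (250 before to 50 after an annotated start) were taken from RefSeq on GRCh38.p14. They were found for 25 of the 33 members, in 48 windows. PMEL, SLC45A2, RAB38, HPS1, AP3B1, CDK2, TBC1D16 and S100B were not matched. CATGTG, searched on both strands (CACATG on the other), was in 16 of the 48 windows, which is 33.3%, against 11.1% of all 35116 windows. The longer M-box TCATGTG, which contains CATGTG, was in 6 windows (12.5%, against 2.92% of all). CACGTG, the other E-box searched, was in 4 windows (8.33%, against 7.26%). Among the 15534 windows of listed genes the shares were 7.70% for CATGTG, 1.91% for the M-box and 9.33% for CACGTG. By gene, 13 of 25 members had CATGTG in at least 1 window, as did 13.4% of the 27305 genes with a window. A match is a string of letters and no evidence of binding.

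The stretches below hold the CATGTG matches upstream of the start in 8 members, written 5′ to 3′ on the gene's strand with CATGTG or TCATGTG in capitals, or CACATG and CACATGA where the motif lies on the other strand. TYR lies on the plus strand (chr11:89177755-89177874), as do TYRP1 (chr9:12693225-12693384), SLC24A5 (chr15:48120930-48120989) and MC1R (chr16:89918772-89918831). DCT lies on the minus strand (chr13:94479803-94479912), as do GPR143 (chrX:9765848-9765927), OCA2 (chr15:28099436-28099485) and both starts of TRPM1 (chr15:31101726-31101805 for the first shown, chr15:31161161-31161240 for the other).
TYR: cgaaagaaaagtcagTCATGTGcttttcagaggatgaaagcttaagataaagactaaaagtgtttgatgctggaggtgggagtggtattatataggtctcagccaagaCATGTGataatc
TYRP1: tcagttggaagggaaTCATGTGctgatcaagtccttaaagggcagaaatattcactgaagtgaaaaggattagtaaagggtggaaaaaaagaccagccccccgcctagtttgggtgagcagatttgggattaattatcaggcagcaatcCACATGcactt
DCT: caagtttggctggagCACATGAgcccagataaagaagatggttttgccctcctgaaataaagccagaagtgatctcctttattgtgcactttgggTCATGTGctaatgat
GPR143: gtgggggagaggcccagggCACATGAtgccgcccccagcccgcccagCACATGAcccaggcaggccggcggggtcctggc
SLC24A5: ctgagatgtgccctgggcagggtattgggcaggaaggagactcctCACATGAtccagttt
OCA2: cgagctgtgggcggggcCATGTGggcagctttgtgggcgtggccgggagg
TRPM1, first start: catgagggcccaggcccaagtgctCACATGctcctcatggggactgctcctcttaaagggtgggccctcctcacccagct
TRPM1, other start: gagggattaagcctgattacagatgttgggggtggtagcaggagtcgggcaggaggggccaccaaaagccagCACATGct
MC1R: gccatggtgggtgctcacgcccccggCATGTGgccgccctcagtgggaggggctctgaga
In TYR the first bases of the matches lie 104 and 12 bases before the start, in TYRP1 144 and 11 bases, in GPR143 61 and 33 bases, and in DCT 215 and 134 bases. Of the members shown, GPR143, DCT, TYR, TYRP1 and SLC24A5 carry an M-box, while OCA2, TRPM1 and MC1R carry the shorter word. Upstream matches in ACP5 (an M-box), EDNRB, HPS4 and ST3GAL6 are not shown.

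The libraries held between 31269923 and 36384819 counts, of which 99.7% to 99.8% fell on listed genes. LINC00622 itself had 309 and 135 counts in the siNC and siLINC00622 libraries of SK-MEL-28 (log2 ratio -1.21, 95% counting interval -1.53 to -0.93) and 135 and 86 counts in those of A375 (log2 ratio -0.84, interval -1.27 to -0.46). All 7 melanocyte lineage markers (MITF, SOX10, PAX3, MLANA, PMEL, TYR and S100B) were listed, with a summed FPKM of 1725 to 1911 in SK-MEL-28 and 135 to 167 in A375. MLANA, PMEL, TYR and S100B are members themselves, so the sum is no separate check of the members. Of the others, SOX10 had 153 and 150 FPKM in SK-MEL-28, against 118 and 149 in A375. MITF had 80.1 and 74.9 FPKM against 5.29 and 4.95, and PAX3 had 6.23 and 5.14 against 2.11 and 1.93. None of the 3 endothelial and 4 leukocyte markers was listed. Of 6 keratinocyte markers 2 were listed, with a summed FPKM of 19.1 to 19.4 in SK-MEL-28, against 32.2 to 32.4 for A375. KRT14 had 494 and 504 counts in A375 and 6 and 2 in SK-MEL-28. Of 5 fibroblast markers 2 were listed (LUM and PDGFRB), at a summed FPKM of 4.10 to 9.80. Their part in the differences below was not tested.

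The members took 1.23% and 1.38% of all counts in the siNC and siLINC00622 libraries of SK-MEL-28, and 0.0783% and 0.0851% in those of A375. PMEL alone took 0.345% and 0.416% of the SK-MEL-28 libraries. In A375 the member with the most counts was TBC1D16, a Rab GTPase-activating protein gene. No member had 0 counts in any library, but 10 of the 33 had under 50 counts in each A375 library. The lines were compared by the edgeR quasi-likelihood test over 16310 genes with treatment as a second term, from 2 libraries per line. By that test 32 of 33 members were higher in SK-MEL-28, against 33.8% of all genes tested, and 1 was lower, against 35.0%. The edgeR adjusted p of the 32 lay between 3.17e-07 and 0.00601. In these bulk libraries fewer cells that express a gene and less RNA per cell cannot be told apart.

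The size of the difference followed the roles. The genes of the pigment organelle itself (enzymes, matrix, transporters) were mostly over 100-fold higher in SK-MEL-28, and the transport and biogenesis genes differed less. Over 100-fold were 11 members (TYR, DCT, PMEL, MLANA, GPR143, OCA2, SLC45A2, SLC24A5, TRPM1, IRF4 and APOE), as were 128 of the 16310 genes tested, which is 0.785%. Over 8-fold were 20 members, against 4.60% of all genes. The median log2 difference of the members was 3.84 and that of all genes was -0.03.

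**Figure D1:**
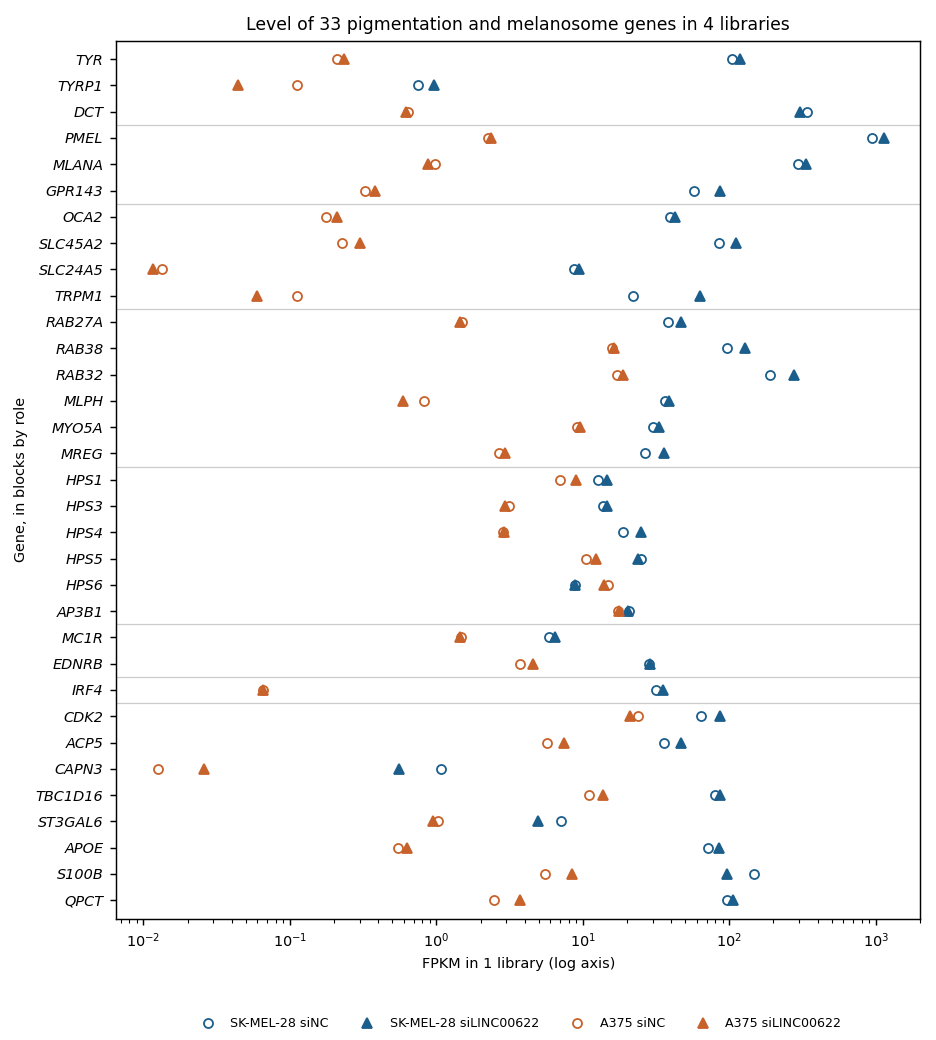
FPKM (log axis) of each of the 33 members in the 4 libraries, in blocks by role; circles are siNC, triangles siLINC00622, blue SK-MEL-28 and orange A375, with 1 library per point. PMEL is highest at 940 and 1134 in SK-MEL-28, and only HPS6 lies further right in A375 than in SK-MEL-28.

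Among the melanin enzymes, TYR (tyrosinase, which starts the pathway from tyrosine) had an FPKM of 104 in SK-MEL-28 siNC, 118 in SK-MEL-28 siLINC00622, 0.210 in A375 siNC and 0.233 in A375 siLINC00622. Its counts were 8952, 10452, 17 and 22 in the same order. The log2 difference between the lines was 8.99 (SE 0.14, edgeR adjusted p = 3.17e-07). DCT, the dopachrome tautomerase, stood at 341 and 303 FPKM in SK-MEL-28, against at 0.645 and 0.623 in A375. Its fitted log2 difference of 9.13 (SE 0.11) was the largest of the 16310 genes tested in favour of SK-MEL-28. The fit adds a prior count of 2, which lowers differences that rest on few A375 counts. By share of counts DCT was not the most extreme, since A375 stood at 0.189% of SK-MEL-28 for DCT and at 0.0% for SCML4 in the siNC libraries. TYRP1, the related enzyme that acts late in eumelanin synthesis, did not share the level of TYR and DCT. It had only 92 and 122 counts (0.744 and 0.956 FPKM) in SK-MEL-28 and 13 and 6 counts (0.111 and 0.0441 FPKM) in A375. TYR and DCT thus stood over 100 FPKM in SK-MEL-28 while TYRP1 stayed under 1, with an M-box in a window of each of the 3. TYRP1 was still called higher in SK-MEL-28, with a log2 difference of 3.39 (SE 0.36, edgeR adjusted p = 0.000198).

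Of the matrix and membrane proteins, PMEL, the fibril protein, had 940 and 1134 FPKM in SK-MEL-28, against 2.24 and 2.35 in A375. MLANA, the Melan-A antigen, had 295 and 332 FPKM against 0.982 and 0.881. GPR143, the melanosomal receptor mutated in ocular albinism, had 57.6 and 86.5 FPKM against 0.324 and 0.383. The 3 log2 differences were 8.97 (SE 0.11), 8.53 (SE 0.13) and 7.73 (SE 0.14), each with an edgeR adjusted p of 3.17e-07. In all 3 the highest A375 library was far below the lowest of SK-MEL-28.

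The transporters and channels showed the same step. SLC45A2, a melanosomal transporter mutated in a form of oculocutaneous albinism, had 84.3 and 111 FPKM in SK-MEL-28, against 0.228 and 0.298 in A375. OCA2, an anion channel that raises melanosomal pH, had 39.4 and 42.3 FPKM against 0.177 and 0.211. SLC24A5, a cation exchanger linked to skin colour, had 8.67 and 9.40 FPKM against 0.0134 and 0.0115, and its A375 value rests on 2 counts in each library. TRPM1, a cation channel gene that hosts miR-211 in an intron, had 22.0 and 63.0 FPKM against 0.112 and 0.0591. The fitted log2 differences were 8.60, 7.74, 8.63 and 8.94 in this order (SE 0.13, 0.14, 0.20 and 0.39), and the wide error of TRPM1 goes with its unequal SK-MEL-28 libraries.

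Melanosome transport genes were all higher in SK-MEL-28 but by unequal amounts, and MLPH and RAB27A were low in A375. RAB27A, the GTPase of mature melanosomes, had 38.3 and 46.8 FPKM in SK-MEL-28, against 1.495 and 1.457 in A375. MLPH, the linker melanophilin, had 36.5 and 38.5 FPKM against 0.822 and 0.591. MYO5A, the actin motor of this complex, differed least of the 3, with 30.1 and 32.8 FPKM against 9.17 and 9.57. The log2 differences were 5.00 (SE 0.12), 5.89 (SE 0.16) and 1.91 (SE 0.08). RAB32 and RAB38, which deliver enzymes to the melanosome, had 189 and 275 FPKM and 95.9 and 128 FPKM in SK-MEL-28. In A375 they had 17.03 and 18.74 FPKM (RAB32) and 15.7 and 16.4 FPKM (RAB38), among the highest values of the group in that line. MREG, melanoregulin, had 26.4 and 35.8 FPKM against 2.65 and 2.94. The log2 differences of RAB32, RAB38 and MREG were 3.84 (SE 0.13), 2.95 (SE 0.12) and 3.62 (SE 0.12).

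The biogenesis genes differed least. AP3B1, a subunit of the AP-3 adaptor, had 20.7 and 20.4 FPKM in SK-MEL-28, against 17.5 and 17.6 in A375, a log2 difference of 0.39 (SE 0.09, edgeR adjusted p = 0.00601). HPS6, a subunit of BLOC-2, was the only member lower in SK-MEL-28, with 8.81 and 8.84 FPKM against 14.8 and 13.9 and a log2 difference of -0.53 (SE 0.10, edgeR adjusted p = 0.00307). Its partners in BLOC-2 were higher in SK-MEL-28. HPS3 had 13.6 and 14.5 FPKM there, against 3.11 and 2.93 in A375, and HPS5 had 24.9 and 23.6 FPKM against 10.5 and 12.3. Their log2 differences were 2.38 (SE 0.10) and 1.26 (SE 0.11). Of the pair that forms BLOC-3, HPS1 had 12.6 and 14.6 FPKM against 7.03 and 8.94, and HPS4 had 18.7 and 24.8 FPKM against 2.83 and 2.88. These were higher by 0.94 (SE 0.10) and 3.08 (SE 0.12) on the log2 scale. The subunits of BLOC-2 and of BLOC-3 therefore did not differ between the lines by a common factor. When counts were scaled by library totals, which lowered the median log2 difference of all genes by 0.16, AP3B1 had a difference of 0.23 (edgeR adjusted p = 0.0507) and was not called. It was also not called without the A375 siNC library (0.32, edgeR adjusted p = 0.13) or without the A375 siLINC00622 library (0.35, edgeR adjusted p = 0.105).

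**Figure D2:**
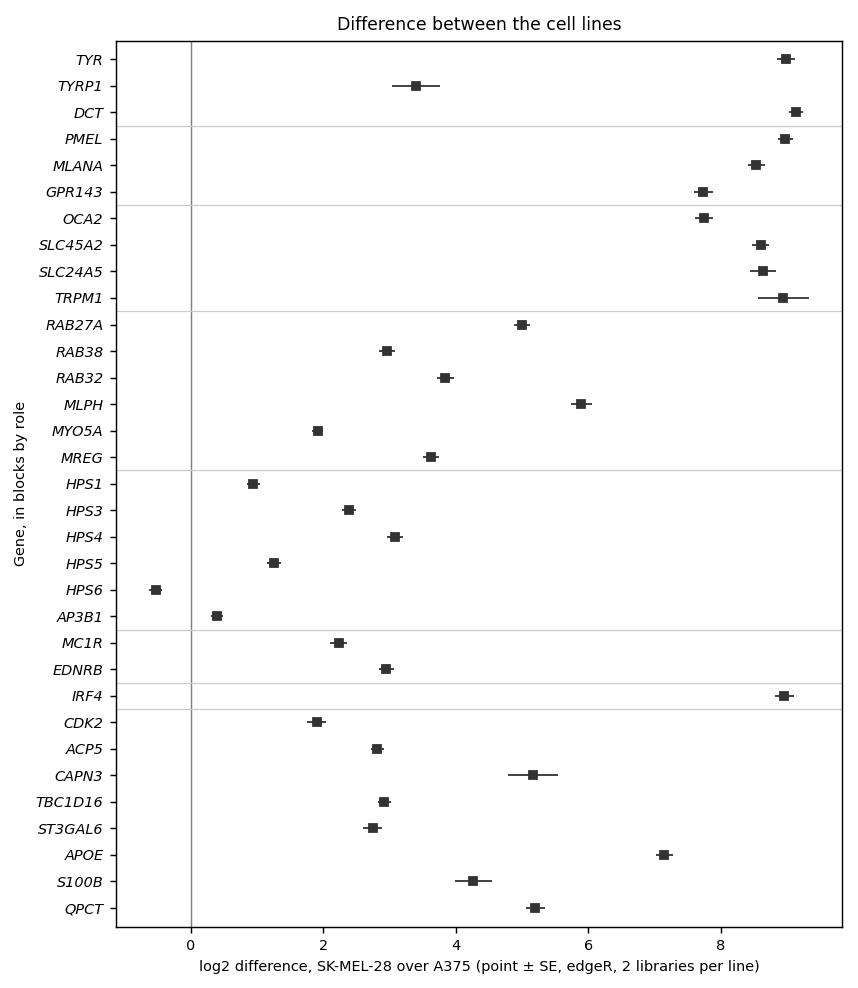
Fitted log2 difference of SK-MEL-28 over A375 for each member, with its SE from edgeR over 2 libraries per line, in blocks by role. DCT is farthest right at 9.13, and HPS6 at -0.53 is the only point left of 0.

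Of the remaining members, IRF4, a transcription factor of the pigment lineage, had 31.7 and 35.3 FPKM in SK-MEL-28, against 0.0653 and 0.0654 in A375 (12 and 14 counts), a log2 difference of 8.96 (SE 0.15). The receptor MC1R, which binds melanocortin, had 5.86 and 6.43 FPKM against 1.48 and 1.44, and EDNRB, which binds endothelins, had 28.3 and 28.7 FPKM against 3.72 and 4.57. They were higher in SK-MEL-28 by 2.23 (SE 0.12) and 2.95 (SE 0.11) on the log2 scale. APOE, the apolipoprotein, had 71.2 and 84.4 FPKM against 0.549 and 0.625, a log2 difference of 7.15 (SE 0.13). S100B, a calcium-binding protein used as a melanoma marker, had 147 and 96.8 FPKM against 5.54 and 8.40 (log2 difference 4.26, SE 0.28). QPCT, a glutaminyl cyclase, had 95.7 and 106 FPKM against 2.46 and 3.75 (log2 difference 5.20, SE 0.14). In all of these the SK-MEL-28 libraries lay above both A375 libraries.

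The cell cycle kinase CDK2 had 63.9 and 86.6 FPKM in SK-MEL-28, against 23.8 and 21.1 in A375 (log2 difference 1.90, SE 0.15). TBC1D16 had 79.4 and 86.4 FPKM against 10.9 and 13.8 (log2 difference 2.92, SE 0.09). Both genes were above 10 FPKM in every library. The acid phosphatase ACP5 had 35.5 and 47.0 FPKM against 5.68 and 7.46 (log2 difference 2.81, SE 0.10). The sialyltransferase ST3GAL6 had 7.08 and 4.91 FPKM against 1.02 and 0.944 (log2 difference 2.74, SE 0.15). The protease CAPN3 was low, with 1.08 and 0.559 FPKM against 0.0125 and 0.0258, and its log2 difference of 5.16 (SE 0.37) rests on 5 and 12 counts in A375.

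Several of the low A375 values stood at nearly the same share of the SK-MEL-28 values. In the siNC libraries, A375 stood at 0.189% of SK-MEL-28 for DCT (interval 0.160 to 0.221), at 0.201% for TYR (interval 0.117 to 0.322), at 0.206% for IRF4 (interval 0.106 to 0.360) and at 0.238% for PMEL (interval 0.210 to 0.269), on counts per library total. In the siLINC00622 libraries DCT stood at 0.206%, TYR at 0.198%, IRF4 at 0.185% and PMEL at 0.207%. Of 6437 genes with at least 1000 counts in SK-MEL-28 siNC, 68 had an A375 share under 1%, and 11 of these were members. The 11 ranged from 0.155% (SLC24A5) to 0.772% (APOE), and TRPM1 had 0.509% in the siNC and 0.0938% in the siLINC00622 libraries. Whether these few reads are transcripts of A375 or carry-over between libraries was not tested, so the A375 levels of these genes, their ratios within A375 and the size of the line difference hold only for the reads as deposited.

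A list of 59 further pathway genes, chosen with earlier results of these data known, followed the members in part. It held transcription regulators, ligands and receptors, sorting subunits and carriers, other melanosome proteins and other MITF targets, with 56 listed and 55 tested. Of the 55, SK-MEL-28 had 40 at a higher level (72.7%, against 33.8% of all genes tested) and 8 at a lower level (14.5%, against 35.0%). MITF had 18955 and 18299 counts in SK-MEL-28, against 1182 and 1288 in A375, a log2 difference of 4.08 (SE 0.09, edgeR adjusted p = 3.89e-07). SOX10, a neural crest factor that activates MITF, differed far less, by 0.36 (SE 0.10, edgeR adjusted p = 0.0199), with 20638 and 20943 counts against 15109 and 22107. PAX3, LEF1, TFAP2A, CREB1 and TFEB were also higher in SK-MEL-28, by 0.42 to 2.25. TFE3 and USF1, which bind E-boxes too, were lower by 1.14 and 0.90 in log2 terms. Of 10 other melanosome proteins 9 were higher in SK-MEL-28, SYTL2 being the one not called, and all differences were under 2.65. The BLOC-1 subunits were mixed, with 5 of 8 higher (62.5%, against 33.8% of all genes) and 1 (SNAPIN) lower (12.5%, against 35.0%).

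The second comparison asked how the members stood after siLINC00622. In SK-MEL-28, 2 of 33 members were over 1.5-fold higher (TRPM1 and GPR143), against 4.56% of the 15442 genes with at least 10 counts. Over 1.5-fold lower were 2 members (CAPN3 and S100B), against 6.49% of all genes. These shares, 6.06% each, are near the background and are no result about the members. Smaller ratios lay mostly on one side. The log2 ratio was above 0 in 27 of 33 members, against 49.5% of all genes, and the median was 0.17 against -0.004. Among genes with at least 1000 counts in both SK-MEL-28 libraries, 24 of 29 members and 53.5% of all 6189 genes were above 0. No test of this shift could be made from 1 library per treatment.

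**Figure D3:**
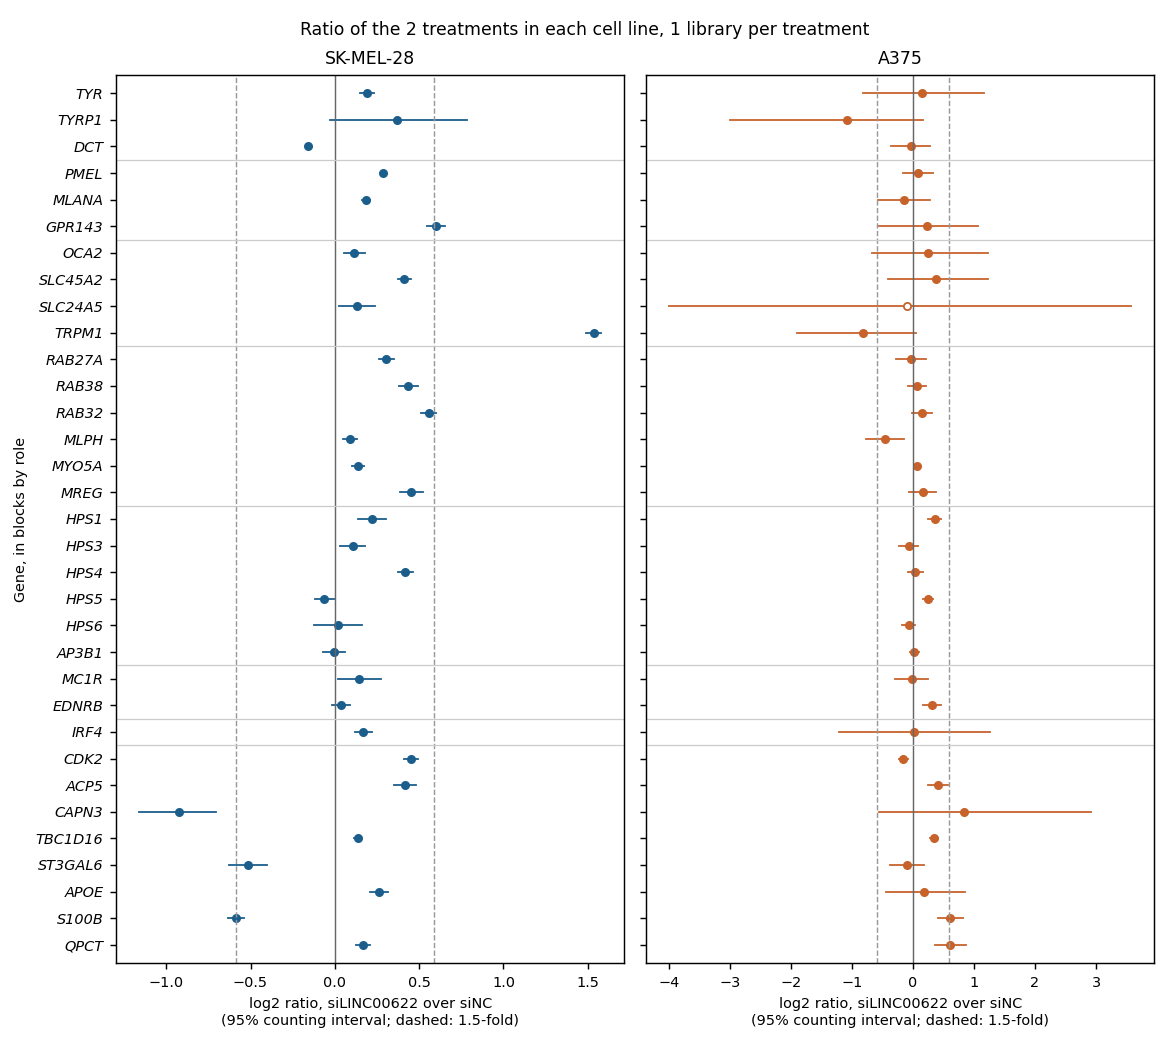
Log2 ratio of siLINC00622 over siNC for each member in SK-MEL-28 (left) and A375 (right), from 1 library per treatment, with 95% counting intervals; dashed lines mark 1.5-fold, the open point had under 10 counts in both libraries, and the panels have different axes. TRPM1 stands apart at 1.53 in SK-MEL-28, while most other members of that line lie between 0 and 0.5.

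TRPM1 (ENSG00000134160, chr15:31001061-31161273 on GRCh38) had the largest ratio of the group. Its counts were 5411 in SK-MEL-28 siNC and 16019 in SK-MEL-28 siLINC00622, and 26 and 16 in A375. The log2 ratio was 1.53 (interval 1.49 to 1.58) in SK-MEL-28 and -0.83 (interval -1.91 to 0.04) in A375. In the fit across both lines it was 1.26 (SE 0.32, edgeR adjusted p = 0.159). An antisense gene, listed by its identifier ENSG00000259720 and named AC009562.1 in GENCODE 29, shares 334 exon bases with TRPM1. Its counts were 279, 962, 1 and 2 in the order SK-MEL-28 siNC, SK-MEL-28 siLINC00622, A375 siNC and A375 siLINC00622. The library kit does not mark strand, so reads of the pair cannot be told apart where they overlap. This gene was singled out after its values were seen, and it was higher with siLINC00622 in the fit across lines (log2 difference 1.68, edgeR adjusted p = 0.0456). It was not called with DESeq2 size factors (edgeR adjusted p = 0.0617), library totals (0.0907) or a minimum of 50 counts (0.136). Limma on log2(FPKM + 1) (adjusted p = 0.380) and the fit without the cell line term did not call it either. Without a filter it was called (edgeR adjusted p = 0.0206), and the DESeq2 Wald test gave it no adjusted p.

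GPR143 (chrX:9725346-9786297) was narrowly past the fold in SK-MEL-28, with 4517 and 6999 counts (log2 ratio 0.60, interval 0.55 to 0.65). In A375 it had 24 and 33 counts and a ratio of 0.23 (interval -0.55 to 1.07). Just inside the 1.5-fold limit were RAB32 at 0.56 and ST3GAL6 at -0.51 in SK-MEL-28. RAB32 had 6666 and 10013 counts there, and ST3GAL6 had 1474 and 1054.

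S100B (chr21:46598962-46605208) had ratios on opposite sides of 0. It had 8775 counts in SK-MEL-28 siNC and 5970 in SK-MEL-28 siLINC00622 (log2 ratio -0.59, interval -0.63 to -0.54). In A375 it had 313 and 552 counts (log2 ratio 0.61, interval 0.41 to 0.81). The SK-MEL-28 value sits at the 1.5-fold limit, and with DESeq2 size factors or with centring on the median S100B was no longer past it. CAPN3 (chr15:42359500-42412318) had 455 and 244 counts in SK-MEL-28 (log2 ratio -0.92, interval -1.16 to -0.70), and 5 and 12 in A375 (log2 ratio 0.84, interval -0.56 to 2.91). The deposited FPKM of CAPN3 implies a length of 12.8 kb, while its GENCODE 29 exons cover 5.00 kb. Of these bases 57.1% are shared with AC012651.1, a protein-coding gene on the same strand. Whether the counts of CAPN3 take in neighbouring transcripts was not tested.

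Intervals lay above 0 in 24 of 33 members in SK-MEL-28, against 22.9% of all genes, and below 0 in 5, against 24.0%. These shares are not matched for depth, since intervals narrow as counts rise. At least 1000 counts in both libraries were found for 29 of the 33 members, but for only 6189 of the 15442 genes. Within roles, the SK-MEL-28 ratios were alike in sign for some groups and mixed for others. All 6 transport genes had intervals above 0, with log2 ratios from 0.09 (MLPH) to 0.56 (RAB32). All 4 transporters and channels and all 3 matrix and membrane genes did too, PMEL at 0.28 (interval 0.27 to 0.29) and SLC45A2 at 0.41 (interval 0.37 to 0.45). The enzymes were split, since TYR stood at 0.19 (interval 0.15 to 0.23) and DCT at -0.16 (interval -0.17 to -0.14), while the interval of TYRP1 spanned 0. Of the 6 biogenesis genes only HPS1, HPS3 and HPS4 had intervals above 0, and that of HPS5 lay below 0. The 8 other lineage genes and MITF targets were mixed too. Their intervals lay above 0 in 5 and below 0 in 3 (CAPN3, S100B and ST3GAL6). These intervals cover counting error alone and leave out any difference between cultures.

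In A375, 32 members had at least 10 counts in 1 of the 2 libraries, SLC24A5 being the exception. Over 1.5-fold higher were 3 (S100B, QPCT and CAPN3), against 4.52% of the 16021 genes with that many counts. Over 1.5-fold lower were 2 (TYRP1 and TRPM1), against 4.34%. Of these 5, only S100B and QPCT had intervals apart from 0. QPCT had 206 and 365 counts (log2 ratio 0.61, interval 0.37 to 0.87), and 8480 and 9713 counts in SK-MEL-28 with a ratio of 0.16 (interval 0.12 to 0.21). TYRP1 rests on 13 and 6 counts (log2 ratio -1.08, interval -3.01 to 0.17). The log2 ratio was above 0 in 21 of 32 members, against 50.7% of all genes, with a median of 0.07 against 0.004. Intervals lay above 0 in 8 members, which is 25.0% against 23.8% of all genes and thus near the background. They lay below 0 in 2 (MLPH and CDK2), which is 6.25% against 22.0%, and the intervals were wide for the 10 members under 50 counts.

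**Figure D4:**
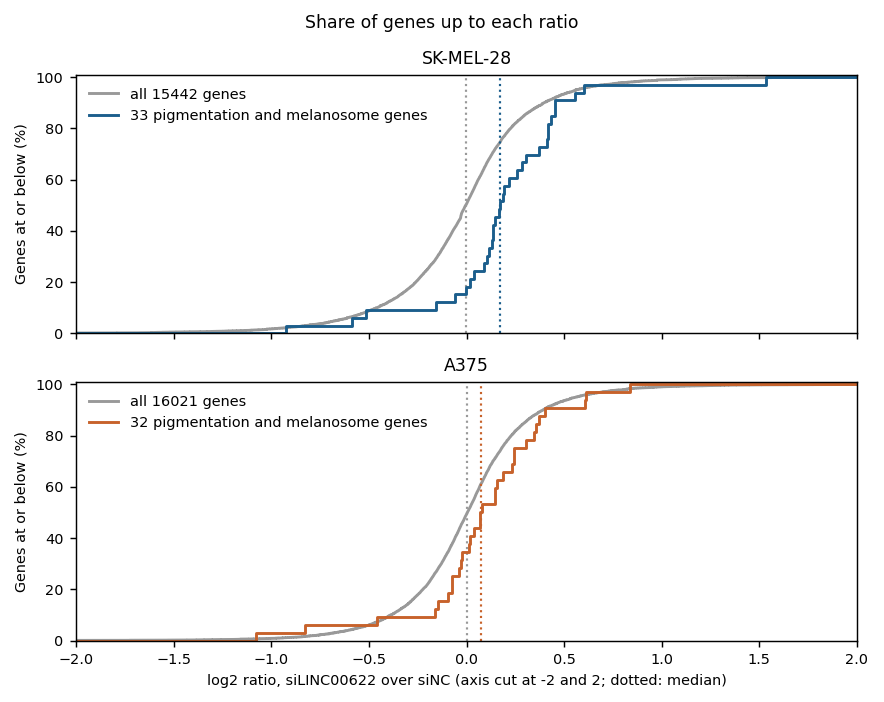
Share of genes (%) with a log2 ratio of siLINC00622 over siNC at or below each value, for the members (coloured) and for all genes with at least 10 counts (grey), with medians dotted, in SK-MEL-28 (top) and A375 (bottom). The member median is 0.17 against -0.004 in SK-MEL-28 and 0.07 against 0.004 in A375.

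Of the 32 members with at least 10 counts in each line, 17 had a ratio above 0 in both lines (53.1%, against 30.9% of 14721 genes), and 5 had intervals above 0 in both (15.6%, against 11.0%). ACP5, the tartrate-resistant acid phosphatase, was the steadiest of these, with 3434 and 4684 counts in SK-MEL-28 (log2 ratio 0.42) and 518 and 792 in A375 (log2 ratio 0.40). HPS1 stood at 0.22 and 0.35, and TBC1D16 at 0.14 and 0.34. The edgeR fit of treatment with the cell line as a second term called 0 of 33 members at an adjusted p of 0.05, against 0.116% of 16310 genes higher and 0.166% lower. At an unadjusted p under 0.05 it had 11 members, all higher, which is 33.3%. Of all genes 2388 (14.6%) were under that p in either direction, and 1235 of these were higher. The shares are not matched for depth. The lowest adjusted p among the members was 0.127, shared by GPR143 (log2 difference 0.55, SE 0.12) and ACP5 (log2 difference 0.42, SE 0.09). DESeq2 and limma called 0 members too. The test rests on 2 pairs with 1 residual degree of freedom, so a p that misses the limit does not show that the members were unaffected.

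Of the 9 transcription regulators on the list, 8 had a ratio below 0 in SK-MEL-28 and 4 in A375, while 49.5% and 50.7% of all genes were above 0 in these lines. Their median stood at -0.11 on the log2 scale for SK-MEL-28, and at 0.007 for A375. MITF had a log2 ratio of -0.08 (interval -0.11 to -0.05) in SK-MEL-28 and -0.09 (interval -0.20 to 0.03) in A375. SOX10 had -0.01 and 0.34, and PAX3 -0.26 and -0.12. TFEB, a lysosomal relative of MITF, was the exception, with 70 and 141 counts (log2 ratio 0.96, interval 0.56 to 1.41). In the fit across lines 2 of the 55 pathway genes were called, PPARGC1A higher (log2 difference 1.61, SE 0.14, edgeR adjusted p = 0.0406) and RRAGD lower (log2 difference -1.82, SE 0.20, edgeR adjusted p = 0.0456). Each is 1.82% of the list, against 0.116% of all genes called higher and 0.166% called lower. The list was chosen with earlier results of these data known, so these shares are no test of the list. PPARGC1A, a coactivator of mitochondrial genes that MITF is known to induce, had 609 and 2040 counts in SK-MEL-28, against 31 and 92 in A375. RRAGD, a Rag GTPase gene of the mTORC1 pathway, had 3313 and 731, and 515 and 234. Neither was called with DESeq2 size factors (edgeR adjusted p = 0.0563 and 0.0617) or library totals (0.0868 and 0.0886) in the same fit, and both were called by the DESeq2 Wald test.

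Seed matches of the siRNAs were looked for in the longest annotated 3′ UTR of each member (GENCODE 29). The 2 siRNAs against LINC00622 are given below on the target strand, with the 7 bases that pair with guide positions 2 to 8 in capitals. Which of them was used for sequencing is not given in the sources used here.
siLINC00622_1: ccctaaagaaaGTGAGAAa
siLINC00622_2: ggcaacctctaATTGACTt
The site of siLINC00622_1 was in 9 of 33 members (27.3%), against 16.2% of 12383 listed genes with a 3′ UTR. That of siLINC00622_2 was in 6 (18.2%, against 12.5%). S100B and CAPN3, the members past 1.5-fold lower in SK-MEL-28, held neither. TRPM1 and GPR143, past 1.5-fold higher, held the first, and ST3GAL6 held the second, each in the stretch of its 3′ UTR that is shown here.
TRPM1: cctccttgtgGTGAGAAcctatatgat
GPR143: gcacacacgtGTGAGAAtggaagagcc
ST3GAL6: ttgactcaagATTGACTctacagactc
A match in these stretches is a string of 7 bases and was not tested as a site of repression.

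Several members share annotated exon bases with other genes, which an unstranded library cannot separate. PMEL and CDK2 overlap on opposite strands at 12q13 by 89 bases, which is 2.28% of PMEL's exon bases. In SK-MEL-28, where PMEL had 114297 and 142181 counts, CDK2 had 8220 and 11505 counts (log2 ratio 0.45, interval 0.41 to 0.49). In A375, with 257 and 314 counts of PMEL, CDK2 had 2893 and 2987 counts and a ratio of -0.16 (interval -0.24 to -0.09). The part of the overlap in this was not tested. SLC24A5 shares 32.9% of its exon bases with MYEF2, and MC1R 9.83% with TCF25.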

How the data were processed

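Poly(A) RNA of SK-MEL-28 and A375 cells was sequenced as paired-end reads of 150 bases, in 4 libraries grouped by the cell line and treatment of their labels. The submitters' processing notes name HISAT2, HISAT, TopHat2 and Bowtie2 and the build hg19; the counter and the annotation are not given in the sources used here. For each gene the authors deposited raw read counts. The FPKM that the authors deposited equal their CPM divided by 1 gene length, the same in all libraries. The CPM that the authors deposited gave the library totals, and the deposited TPM are a multiple of the FPKM and were not used further.

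Within a line, log2 ratios used TMM scaling on library totals (edgeR 4.0.16, R 4.3.3), a prior count of 2, a minimum of 10 counts in either library, a fold of 1.5 and 95% Clopper-Pearson intervals (scipy 1.17.1, Python 3.11.15). Reads carry no molecular identifiers, so the intervals cover counting error only. Across lines, edgeR's quasi-likelihood test with cell line and treatment as terms used 16310 genes with at least 10 counts in 2 libraries, with Benjamini-Hochberg adjustment over all genes and a threshold of 0.05. The SE is the log2 difference over the root of the F statistic. Nothing says that the libraries of a line came from separate cultures beyond their treatments, so p-values measure the spread between these libraries. The fit was tested on simulated data. Alternatives used DESeq2 1.42.0, limma 3.58.1, other scalings, filters, prior counts and pseudocounts on FPKM.

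Every member was given with its levels and line difference, and members past 1.5-fold with ratios and intervals; the regulators and called genes of the pathway list were named. The members and lists were chosen with earlier results of these data known. GENCODE 29 and RefSeq sequences are on GRCh38 and not on the build of the files; no coordinates were converted.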

Additional observations from a re-analysis of the deposited data

Results flagged for a closer look

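In 4 members the log2 ratio of siLINC00622 over siNC had opposite signs in the cell lines, and neither counting interval spanned 0. S100B stood at -0.59 in SK-MEL-28 and at 0.61 in A375. CDK2 stood at 0.45 in SK-MEL-28 and -0.16 in A375. MLPH stood at 0.090 in SK-MEL-28 and -0.46 in A375, where it had 191 and 160 counts. HPS5 stood at -0.062 in SK-MEL-28 and 0.24 in A375. With 1 library per treatment in each line the difference was not tested for any of the 4.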

How the results depend on the processing

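No called result changed direction under the alternatives that were run. Among values not called, AP3B1 in SK-MEL-28 (-0.005) was 0.005 with DESeq2 size factors. In the treatment fit AP3B1 (0.017) was -0.005 with library totals and with limma, MLPH (-0.098) was 0.082 without the cell line term, and S100B (-0.065) and TYRP1 (0.080) were 0.025 and -0.32 with the DESeq2 Wald test. In the line comparison all calls of members remained but that of AP3B1. In SK-MEL-28 the 2 members over 1.5-fold higher became 1 on log2(FPKM + 1), and the 2 lower became 1 on log2(FPKM + 1), with DESeq2 size factors and with centring on the median. In A375 the 3 higher became 0 on log2(FPKM + 1), and the 2 lower became 0 on log2(FPKM + 1), on log2(FPKM + 0.1) and at 50 counts or more. CAPN3 in SK-MEL-28 had a log2 ratio of -0.41 on log2(FPKM + 1) and -0.92 on counts. These pseudocounts shrink ratios of low genes by construction. Over all genes in SK-MEL-28, 704 higher and 1002 lower became 200 and 294 on log2(FPKM + 1) and 356 and 638 at 50 counts or more, and without a filter 1081 were higher. In A375, 724 higher and 696 lower became 131 and 171, and 405 and 312, under the same choices, and without a filter 1064 were lower. In the treatment fit 19 genes higher and 27 lower became 1 and 0 with DESeq2 size factors, with library totals and with limma on log2(FPKM + 1), 144 and 159 with the DESeq2 Wald test, 57 and 64 without a filter, and 0 and 0 at 50 counts or more or without the cell line as a term. The count of members was 0 under each of these, while the adjusted p of PPARGC1A and RRAGD lay on both sides of 0.05; the cause was not tested. In the line fit 5710 genes lower became between 3593 and 4649 when 1 library was left out, the lowest without A375 siNC (3697 without A375 siLINC00622). SLC24A5 could not be tested without an SK-MEL-28 library, since its A375 counts are 2 and 2. Leaving out a library of the treatment comparison was not possible, since no residual degree of freedom or no second library would be left. The treatment fit pairs the libraries by cell line. No paired analysis was possible by replicate number, since the labels give none. Depth limits the A375 ratios of the 10 members under 50 counts.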

Other observations

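Of 55 genes of the pathway list, 5 were over 1.5-fold higher in SK-MEL-28 (9.09%, against 4.56% of all genes) and 2 lower (3.64%, against 6.49%). Beside PPARGC1A, RRAGD and TFEB, these were the 4 genes that follow. ATP7A, the copper pump that supplies tyrosinase, had 1832 and 4299 counts in the siNC and siLINC00622 libraries, a log2 ratio of 1.198 (interval 1.12 to 1.28), and 592 and 755 counts in A375 with a ratio of 0.14. BIRC7, an inhibitor of apoptosis and a known MITF target, had 5629 and 11235 counts in SK-MEL-28 (log2 ratio 0.97) and 24 and 35 in A375. TNFRSF14 had 12406 and 22868 counts (log2 ratio 0.85) and 214 and 260 in A375. DTNBP1, the BLOC-1 subunit dysbindin, had 1240 and 740 counts in SK-MEL-28 (log2 ratio -0.77) and 365 and 304 in A375 (log2 ratio -0.47). The fit across lines called none of these 4, with edgeR adjusted p-values of 0.228 for ATP7A, 0.0780 for BIRC7, 0.215 for TNFRSF14 and 0.115 for DTNBP1.

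In A375, SYTL2, a RAB27A effector, had 827 and 1875 counts, a log2 ratio of 0.97 (interval 0.85 to 1.09), while SK-MEL-28 had 1962 and 1601 and a ratio of -0.32. LYST, the gene of Chediak-Higashi syndrome, had 1287 and 2346 counts in A375 (log2 ratio 0.66) and 5596 and 5861 in SK-MEL-28 (log2 ratio 0.04). The difference between the lines was not tested for either gene.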
